A study of Mus musculus with 4 samples.

Results

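The chemokine receptor gene Cxcr3 and the genes of its ligands, Cxcl9, Cxcl10 and Cxcl11, were followed through the immune cells of CT26 tumours. The 4 genes were chosen by symbol; 3 of them, Cxcl9, Cxcl10 and Cxcr3, were measured here among 32285 listed genes, and Cxcl11 was not analysed here. CT26 is a colon carcinoma cell line that grows as a tumour in Balb/c mice. The liproxstatin group comprised 2 libraries from tumour-bearing Balb/c mice, 9 weeks old, treated over 8 days with liproxstatin-1, which blocks ferroptosis, a form of cell death in which membrane lipids are oxidised; the control group comprised 2 libraries from tumour-bearing mice of the same strain and age. All 4 libraries held tumour cells picked out by beads for CD45, which leukocytes carry on their surface, and were made by the 10x Genomics droplet method. What the control mice received is not given in the sources used here, and neither is whether the 2 libraries of a group came from separate animals, so p-values here measure a spread between libraries that may be technical.

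CXCR3 is a G protein-coupled receptor of activated T cells and NK cells, and cells that carry it move towards its ligands. The ligands are small secreted chemokines whose genes lie side by side and respond to interferons: Cxcl9 mainly to interferon gamma, and Cxcl10 also to type I interferons and to NF-kappaB. In mouse tumours, macrophages and dendritic cells are known sources of the ligands.

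In the GENCODE M21 annotation of GRCm38 the ligand genes lay on the minus strand of chromosome 5, with Cxcl9 (ENSMUSG00000029417) at chr5:92321347-92328079 and Cxcl10 (ENSMUSG00000034855) at chr5:92346638-92348889, 18558 bases apart. Cxcl11 (ENSMUSG00000060183), annotated there as a polymorphic pseudogene, followed 10654 bases further on at chr5:92359544-92365485. Cxcr3 (ENSMUSG00000050232) lay at chrX:101731535-101734269, also on the minus strand. The promoters of the measured ligands are shown because the ligands parted between monocyte clusters, described further on. Each runs from 250 bases before to 50 bases after the start of the gene, 5′ to 3′ on the minus strand of GRCm38.p6, from RefSeq, at chr5:92328030-92328329 for Cxcl9 and at chr5:92348840-92349139 for Cxcl10. Capitals mark matches to the interferon-stimulated response element, searched as GAAA, any 2 bases and GAAA, and to the NF-kappaB consensus, both on either strand.
Cxcl9: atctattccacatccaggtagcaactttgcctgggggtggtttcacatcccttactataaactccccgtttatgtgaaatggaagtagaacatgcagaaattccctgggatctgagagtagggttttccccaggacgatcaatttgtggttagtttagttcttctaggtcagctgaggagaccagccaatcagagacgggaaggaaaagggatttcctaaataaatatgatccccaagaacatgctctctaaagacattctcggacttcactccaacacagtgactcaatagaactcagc
Cxcl10: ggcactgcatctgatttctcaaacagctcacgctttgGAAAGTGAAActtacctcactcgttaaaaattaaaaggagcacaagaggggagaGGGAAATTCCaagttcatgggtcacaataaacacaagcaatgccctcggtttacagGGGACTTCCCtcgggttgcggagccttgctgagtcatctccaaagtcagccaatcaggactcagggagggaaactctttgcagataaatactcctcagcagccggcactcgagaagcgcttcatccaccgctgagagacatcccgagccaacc
The Cxcl10 promoter held 1 match to the response element, GAAAGTGAAA, 213 bases before the start, and 2 matches to the NF-kappaB consensus, GGGAAATTCC and GGGACTTCCC, 159 and 103 bases before it; no match overlapped another. The Cxcl9 window held no match to either motif, nor did the Cxcr3 window, and none of the 3 windows matched the gamma-activated site, searched as TTCNNNGAA. Among 32851 promoters of the same length, 3.44% held the response element, 4.51% the NF-kappaB consensus and 8.3% the gamma-activated site. A match describes letters in this window and no more.

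The 4 libraries held 8659 and 9299 barcodes in the liproxstatin group, against 4138 and 6996 in the control group, with 168597163 and 165165389 UMIs (unique molecular identifiers, each counting 1 captured transcript), against 83129874 and 162158147 UMIs. After filtering, 25730 of 29092 barcodes were kept. Ptprc, the gene of CD45, had a UMI in 89.8% and 93.5% of kept cells in the liproxstatin libraries, against 81.9% and 89.3% in the control libraries; a small class of fibroblasts, 198 cells in all, reached 31.8% and 28.2% in the liproxstatin libraries, against 50% and 15.8% in the control libraries. Control replicate 1 stood apart: it was the smallest library, and 18.3% of its kept cells fell into unnamed clusters, most of them into one with a median of 1306 UMIs a cell, against 8.04% and 2.98% in the liproxstatin libraries and 8.03% in control replicate 2. Any pair of libraries shared between 4 and 22 barcodes, at most 0.29% of the smaller one. Cells were clustered without the measured members, and a class name, such as neutrophils, means only that its clusters were like that cell type by marker genes.

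Macrophages and monocytes held nearly all ligand transcripts, and T and NK cells most receptor transcripts. Macrophages and monocytes together, called mononuclear phagocytes here, held 95.5% and 95.9% of the Cxcl9 UMIs of the liproxstatin libraries, against 94.0% and 96.2% in the control libraries. They made up 55.1% and 60.2% of kept cells in the liproxstatin libraries, against 51.1% and 56.3% in the control libraries. They were also deeper, with a median of 24165.5 UMIs a cell beside 16698 over all kept cells. Of the Cxcl10 UMIs they held 93.5% and 92.8% in the liproxstatin libraries, against 91.6% and 93.6% in the control libraries. T and NK cells held 64.0% and 70.5% of the Cxcr3 UMIs in the liproxstatin libraries, against 60.8% and 64.8% in the control libraries. The ranges of the groups overlapped for all 3 shares; with 2 libraries a group, an exact permutation test cannot give a two-sided p below 0.3333, so none is given. In total the kept cells held 307094 UMIs of Cxcl9, 173339 of Cxcl10 and 4316 of Cxcr3.

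**Figure D1:**
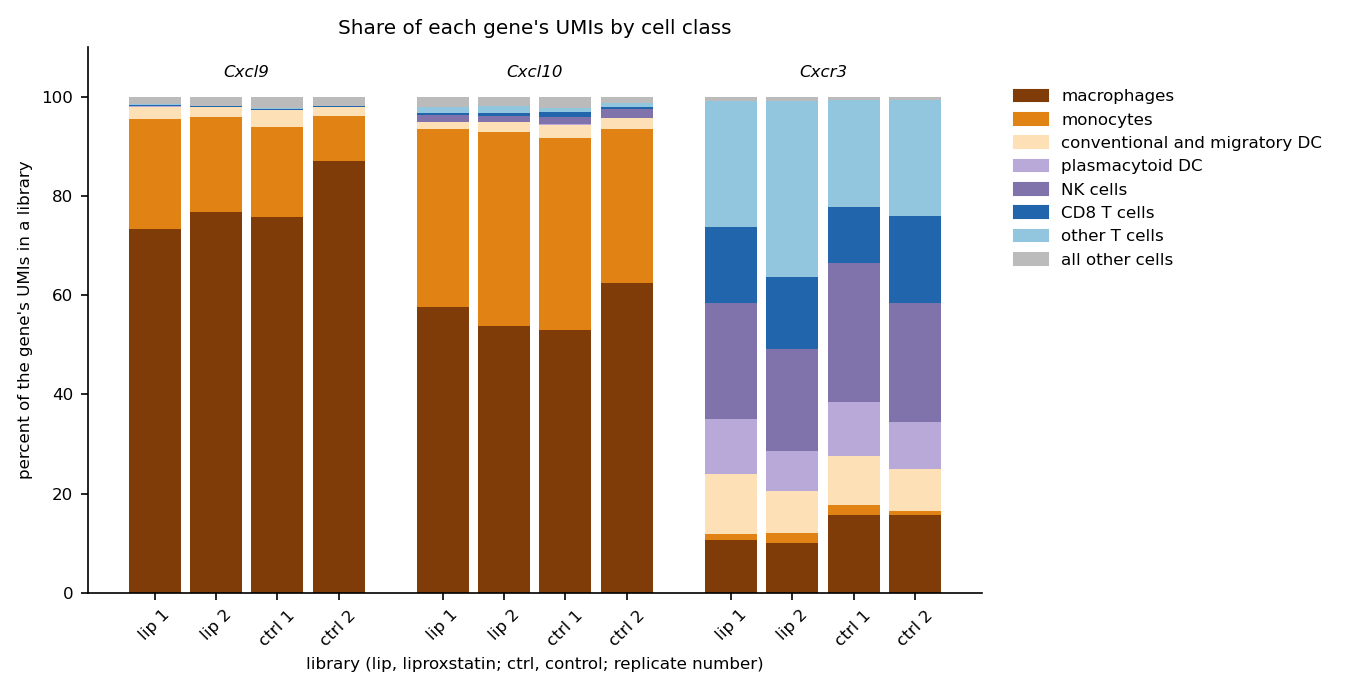
Percent of each gene's UMIs (vertical axis) that lay in each group of cell classes, 1 stacked bar per library, liproxstatin libraries left of control libraries within each gene. Mononuclear phagocytes filled over 90% of every ligand bar, whereas the Cxcr3 bars were split between T cells, NK cells, dendritic cells and macrophages.

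Levels are given as CPM, the UMIs of the gene per 1000000 UMIs of a class in 1 library. Reads of this method come from the 3′ end of transcripts, so that gene length does not enter. Class against class is a description without a test, since the classes were built from the same cells.

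Cxcl9 was highest in the clusters named macrophages and monocytes, and lower in dendritic cells. Macrophages had 865 and 855 CPM in the liproxstatin libraries, against 771 and 565 CPM in the control libraries. Monocytes had 930 and 799 CPM in the liproxstatin libraries, against 775 and 361 CPM in the control libraries. The order of these 2 classes was not the same in all libraries: macrophages were above monocytes in 2 of the 4. The place of monocytes turned on the naming: a gate on markers cell by cell called 640 of the 4468 cells in monocyte clusters monocytes and 2414 macrophages. Gated monocytes had 312 and 109 CPM of Cxcl9 in the liproxstatin libraries, against 57.8 and 207 CPM in the control libraries, whereas gated macrophages had 913 and 874 CPM in the liproxstatin libraries, against 793 and 545 CPM in the control libraries. By the gate, then, Cxcl9 in monocytes averaged below that in type 1 conventional dendritic cells, which had 500.3 and 450.3 CPM in the liproxstatin libraries, against 403 and 324 CPM in the control libraries.

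Among dendritic cells, the type 2 conventional class, which presents antigen mainly to CD4 T cells, had 550 and 540 CPM of Cxcl9 in the liproxstatin libraries, against 587 and 300 CPM in the control libraries. The type 1 conventional class, which presents antigen to CD8 T cells, had 505 and 436 CPM in the liproxstatin libraries, against 328 and 351 CPM in the control libraries. Ranges of neighbours in the order overlapped down to fibroblasts. Fibroblasts had 293 and 76.6 CPM in the liproxstatin libraries, against 81.5 and 124 CPM in the control libraries. They did not overlap neutrophils, the next class below. Migratory dendritic cells, placed above fibroblasts by their mean, ranged from 38.7 to 533 CPM and so reached down to the neutrophil levels. Neutrophils had 47.4 and 29.3 CPM in the liproxstatin libraries, against 42.9 and 29.9 CPM in the control libraries. The level there that free RNA would give, reckoned from the macrophage genes C1qa, C1qb and C1qc, was 63.0% and 94.4% of the neutrophil Cxcl9 level in the liproxstatin libraries, against 63.2% and 78.0% in the control libraries, so Cxcl9 in neutrophils was read as near background. Lymphoid classes averaged 25.5 CPM (regulatory T cells) or less over the 4 libraries.

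Cxcl10 had another order, led by the clusters named monocytes. They had 744 and 901 CPM in the liproxstatin libraries, against 1018 and 802 CPM in the control libraries, and every library of theirs lay above every library of the next class. Type 2 conventional dendritic cells followed with 349 and 602 CPM in the liproxstatin libraries, against 462 and 570 CPM in the control libraries. The lead of monocytes over them rested on cluster 13, whose name was weak, as described further on. Clusters 1 and 9, also named monocytes, lay below them in both control libraries and in liproxstatin replicate 2. Macrophages came next, with 335 and 335 CPM in the liproxstatin libraries, against 332 and 264 CPM in the control libraries, again with no overlap. By the marker gate the lead of monocytes was lost: gated monocytes had 506 and 311 CPM in the liproxstatin libraries, against 899 and 210 CPM in the control libraries, which overlapped gated macrophages at 409 and 436 CPM in the liproxstatin libraries, against 440 and 334 CPM in the control libraries. Gated type 2 conventional dendritic cells also overlapped gated macrophages. They had 510 and 250 CPM in the liproxstatin libraries, against 427 and 1.83 CPM in the control libraries. Below macrophages the ranges of neighbouring classes overlapped down to the last of them, plasmacytoid dendritic cells, at 16.4 ± 23.9 CPM (SD, n = 4 libraries). NK cells held a steady 101 and 83.7 CPM in the liproxstatin libraries, against 86.5 and 97.7 CPM in the control libraries. Free RNA from macrophages would give at most 5.15% of that, with free RNA from monocytes not counted. The type 1 conventional dendritic cells, high in Cxcl9, had little Cxcl10: 15.7 and 15.6 CPM in the liproxstatin libraries, against 52.9 and 34.0 CPM in the control libraries.

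Cxcr3 was highest in T cells other than CD8 T cells and in plasmacytoid dendritic cells, a dendritic class that makes type I interferon. Regulatory T cells, which restrain other T cells and are marked by Foxp3, had 131 and 158 CPM in the liproxstatin libraries, against 160 and 119 CPM in the control libraries. Conventional CD4 T cells had 66.5 and 132 CPM in the liproxstatin libraries, against 182 and 132 CPM in the control libraries. Plasmacytoid dendritic cells had 98.7 and 82.7 CPM in the liproxstatin libraries, against 94.2 and 121 CPM in the control libraries. The ranges of these 3 classes overlapped, and each was wholly above the type 1 conventional dendritic cells, at 49.8 and 46.0 CPM in the liproxstatin libraries, against 41.5 and 58.9 CPM in the control libraries.

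NK cells, which kill without antigen receptors, had 35.2 and 36.6 CPM of Cxcr3 in the liproxstatin libraries, against 47.2 and 41.7 CPM in the control libraries. CD8 T cells, the cytotoxic T cells, had 14.2 and 12.8 CPM in the liproxstatin libraries, against 18.7 and 17.3 CPM in the control libraries. In both classes each liproxstatin library lay below each control library, and NK cells lay above CD8 T cells in all 4 libraries. Free RNA from T cells, reckoned from Cd3d, Cd3e, Cd3g and Trac, would give at most 0.34% of the Cxcr3 level of plasmacytoid or type 1 conventional dendritic cells. Macrophages had 1.42 and 1.40 CPM in the liproxstatin libraries, against 2.70 and 1.92 CPM in the control libraries; through their number they still held 10.7% and 10.1% of Cxcr3 UMIs in the liproxstatin libraries, against 15.8% and 15.6% in the control libraries. Migratory dendritic cells had no Cxcr3 UMI in any library.

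**Figure D2:**
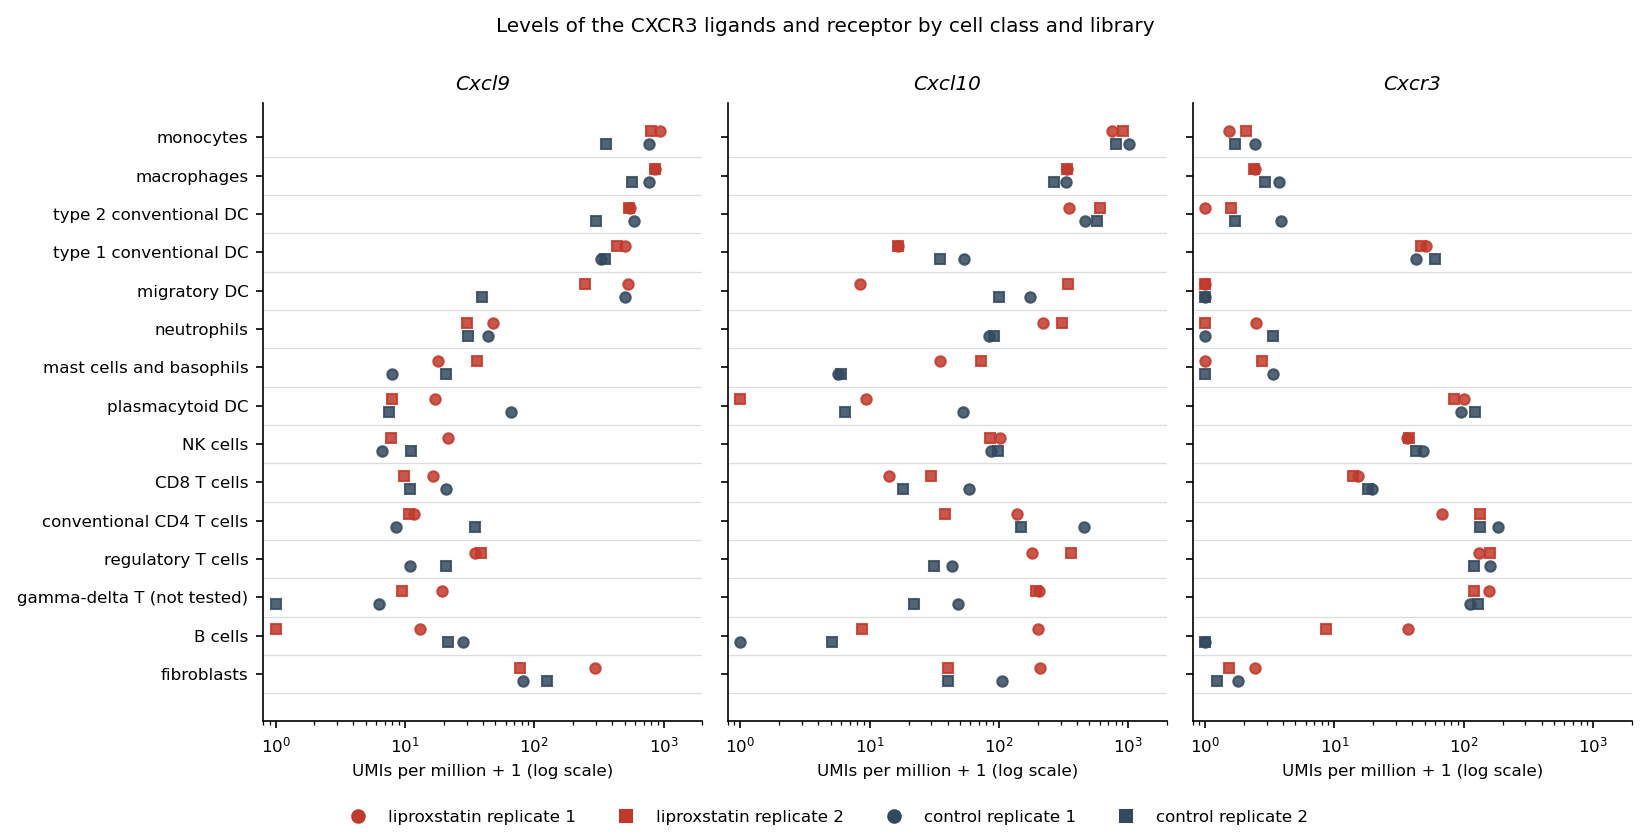
Level of Cxcl9, Cxcl10 and Cxcr3 (horizontal axis, CPM plus 1, log scale) in each cell class, with 1 point per library, liproxstatin in red above control in dark blue. Both ligands were high in the monocyte, macrophage and type 2 conventional rows, while the type 1 conventional row was high in Cxcl9 only and the plasmacytoid row low in both, and Cxcr3 was highest in regulatory, conventional CD4 and gamma-delta T cells and plasmacytoid dendritic cells.

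Shares of cells with a UMI gave like orders. After every cell was thinned to 2000 UMIs, Cxcr3 was seen in 21.1% and 23.4% of regulatory T cells in the liproxstatin libraries, against 23.9% and 21.1% in the control libraries. It was seen in 3.35% and 3.15% of CD8 T cells in the liproxstatin libraries, against 4.29% and 4.55% in the control libraries. Macrophages showed it in 0.321% and 0.249% in the liproxstatin libraries, against 0.458% and 0.339% in the control libraries. Shares of cells cover counting error only. Without thinning the shares were 43.2% and 50.3% of regulatory T cells in the liproxstatin libraries, against 55.1% and 47.2% in the control libraries, and 11.5% and 10.9% of CD8 T cells in the liproxstatin libraries, against 14.5% and 14.3% in the control libraries. CD8 T cells, with a median of 12361.5 UMIs a cell, were deeper than regulatory T cells, at 4575 to 6835.5, and shallower than macrophages, at 29130; thinning left out between 1 and 16 cells of a library in each of these classes.

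Within the phagocytes the ligands parted by cluster. Cluster 0, macrophages led by Vcam1, C1qa, C1qc, C1qb and Cx3cr1, held 48.0% of all Cxcl9 UMIs and 24.2% of the Cxcl10 UMIs. It had 1124 and 1056 CPM of Cxcl9 in the liproxstatin libraries, against 1149 and 842 CPM in the control libraries, and 293 and 315 CPM of Cxcl10 in the liproxstatin libraries, against 324 and 271 CPM in the control libraries. Its ratio of Cxcl9 to Cxcl10 UMIs was thus 3.84 and 3.35 in the liproxstatin libraries, against 3.54 and 3.10 in the control libraries.

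Cluster 13, named monocytes and led by the interferon-induced genes Ifit2, Ifit3, Cmpk2, Rsad2 and Ifit1bl1, was small but held 24.4% of all Cxcl10 UMIs. It made up 4.41% and 4.88% of phagocytes in the liproxstatin libraries, against 6.002% and 3.21% in the control libraries. Its Cxcl10 level was 2262 and 2921 CPM in the liproxstatin libraries, against 2878 and 3251 CPM in the control libraries. Its Cxcl9 level was 1582 and 1440 CPM in the liproxstatin libraries, against 1476 and 844 CPM in the control libraries, which turned the ratio of Cxcl9 to Cxcl10 below 1, at 0.699 and 0.493 against 0.513 and 0.260. Cxcl10 itself, though kept out of the clustering, was among the top 10 genes of this cluster by fold, and no monocyte marker was. Its name was weak: the marker score was 0.429 for monocytes and 0.405 for endothelial cells, and at resolution 0.5 the like cluster stayed unnamed. The other monocyte clusters had less Cxcl10, as in cluster 1, led by Vcan, F10, Fn1, Cxcl1 and Ly6i, with 463 and 508 CPM in the liproxstatin libraries, against 374 and 187 CPM in the control libraries.

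Cluster 9, monocytes led by Ace, Adgre4, Chil3, Ear2 and Dmkn, had Cxcl10 with little Cxcl9. Its Cxcl10 level was 332 and 125 CPM in the liproxstatin libraries, against 282 and 115 CPM in the control libraries. Its Cxcl9 level was 83.1 and 49.8 CPM in the liproxstatin libraries, against 6.69 and 26.8 CPM in the control libraries. Both liproxstatin libraries lay above both control libraries for Cxcl9 in this cluster, for which no test was run. Cluster 7, macrophages led by Mmp12, Ppbp, Adm, Nos2 and Arg1, was low in Cxcl9, with 117 and 149 CPM in the liproxstatin libraries, against 137 and 118 CPM in the control libraries.

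Cluster 6, macrophages led by Lyve1, Ednrb, Cd163, Cd209g and Cd209f, was also low in Cxcl9, with 211 and 270 CPM in the liproxstatin libraries, against 366 and 177 CPM in the control libraries. Its Cxcr3 level was 4.90 and 3.63 CPM in the liproxstatin libraries, against 8.51 and 4.92 CPM in the control libraries, above the 1.11 and 1.30 CPM against 1.66 and 1.39 CPM of cluster 0. Free RNA from T cells would give at most 6.29% of the Cxcr3 level of macrophages as a whole in any library.

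**Figure D3:**
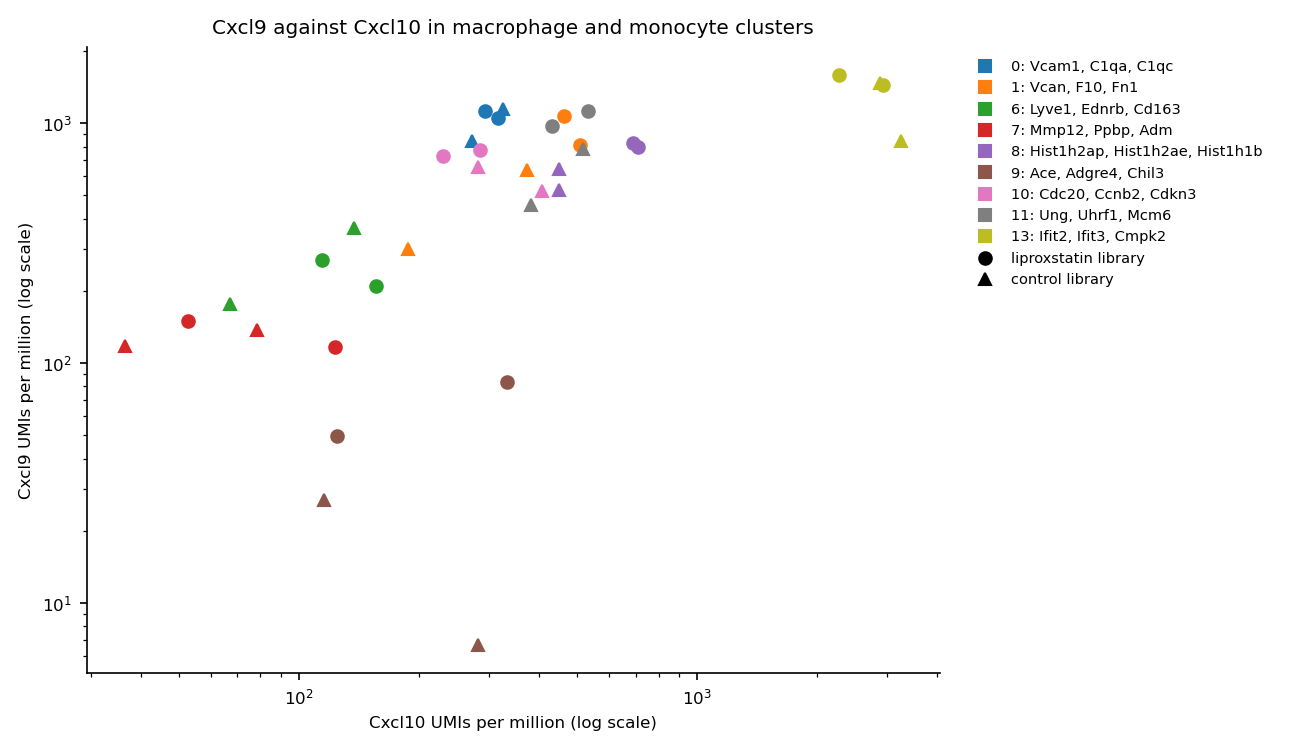
Cxcl9 level (vertical axis) against Cxcl10 level (horizontal axis), both in CPM on log scales, for each macrophage or monocyte cluster (colour, with its leading genes) in each library (circles, liproxstatin; triangles, control). Cluster 13 lay at the far right in all 4 libraries and cluster 9 lay lowest in Cxcl9.

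Ligand UMIs were unevenly spread over cells of 1 class. The 10% of mononuclear phagocytes with most Cxcl9 held 70.7% and 69.7% of its UMIs in the liproxstatin libraries, against 70.9% and 76.3% in the control libraries. For Cxcl10 the same share of cells held 84.6% and 85.9% in the liproxstatin libraries, against 83.2% and 89.8% in the control libraries. Cxcl10 was seen more often in phagocytes with a Cxcl9 UMI, at 29.7% and 29.9% of them in the liproxstatin libraries and 30.8% and 26.8% in the control libraries, than in phagocytes without one, at 14.04% and 13.98% in the liproxstatin libraries and 15.4% and 11.8% in the control libraries, all thinned to 2000 UMIs.

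Over 56 points (14 classes in 4 libraries, which share library, depth and free RNA), Pearson correlations of log2(CPM + 1) were computed for 9603 genes as a description. The genes most like Cxcl9 were Aif1 at 0.900, Pid1 at 0.899, Cttnbp2nl at 0.897, Adap2 at 0.866 and Batf2 at 0.864. Those most like Cxcl10 were Metrnl at 0.810, Gbp2b at 0.781, Ifit1 at 0.768, Itgam at 0.741 and Rtp4 at 0.736. Those most like Cxcr3 were Hnrnpa2b1 at 0.828, S1pr4 at 0.824, Fryl at 0.821, Lag3 at 0.817 and Kbtbd11 at 0.804. Cxcl9 and Cxcl10 correlated at 0.525 with each other, and with Cxcr3 at -0.452 and -0.190.

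Liproxstatin was then compared with control within each class by edgeR's quasi-likelihood test on UMIs summed per library, with p-values adjusted by the Benjamini-Hochberg method over all genes tested in that class and a threshold of 0.05. Of 31 tests of a member in a class, 4 passed, all of them for Cxcl10: it was higher with liproxstatin in neutrophils, regulatory T cells, and mast cells and basophils, and lower in type 1 conventional dendritic cells. Over all genes and classes, 0.477% of tests passed (533 of 111680), with 0.315% higher and 0.162% lower. Of these 4 calls, the one in neutrophils held without the cell of each library that carried most Cxcl10 UMIs. The other 3 did not hold. This alternative was chosen after seeing the data. In neutrophils it took a larger share of UMIs from each control library than from either liproxstatin library. It therefore favoured a higher fold change there. Cxcl9 passed in 0 of 11 classes by edgeR, with 3 at an unadjusted p under 0.05 and a log2 fold change above 0 in 9, and Cxcr3 in 0 of 8, with 2 at an unadjusted p under 0.05.

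Neutrophils are the cells named in the title of the study. Their Cxcl10 level was 218 and 304 CPM in the liproxstatin libraries, from 446 and 332 UMIs, against 83.0 and 91.0 CPM in the control libraries, from 29 and 155 UMIs. Both liproxstatin libraries lay above both control libraries, and the log2 fold change was 1.53 ± 0.23 (SE; adjusted p = 0.0088, edgeR), in a class where 0.223% of genes passed. Class sizes were 583 and 392 neutrophils in the liproxstatin libraries, against 98 and 443 in the control libraries. Their 8 marker genes, such as S100a8 and S100a9, summed to between 112981 and 146315 CPM.

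The neutrophil groups stood apart in Cxcl10 UMIs per cell that had any, and not in the share of such cells, though neither was tested. A Cxcl10 UMI was seen in 64 and 30 neutrophils in the liproxstatin libraries, with a mean of 6.97 and 11.1 UMIs in those cells, against 9 and 46 neutrophils in the control libraries, with a mean of 3.22 and 3.37 UMIs. Thinned to 2000 UMIs, the share of neutrophils with a Cxcl10 UMI was 8.11% (exact binomial 95% interval 5.91 to 10.8) and 5.47% (3.27 to 8.51) in the liproxstatin libraries, against 5.62% (1.85 to 12.6) and 8.37% (5.90 to 11.5) in the control libraries; 65 and 63 neutrophils of the liproxstatin libraries, against 9 and 25 of the control libraries, were too shallow to thin. Unthinned, it was 10.98% and 7.65% in the liproxstatin libraries, against 9.18% and 10.4% in the control libraries. The shares of the groups overlapped, whereas the mean UMIs of thinned cells with a UMI, 5.76 and 9.56 in the liproxstatin libraries against 2.60 and 2.71 in the control libraries, did not.

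Single cells weighed on the neutrophil level. The cell with most Cxcl10 held 17.7% and 34.6% of the neutrophil UMIs in the liproxstatin libraries, against 72.4% and 39.4% in the control libraries. Without that cell the level was 180 and 200 CPM in the liproxstatin libraries, against 23.2 and 55.3 CPM in the control libraries, and the log2 fold change was 2.03 (adjusted p = 0.0018, edgeR). Leaving it out took the larger shares from the control libraries, which by itself raises the fold change. Free RNA from macrophages would give 5.31% and 3.57% of the Cxcl10 level of neutrophils in the liproxstatin libraries, against 14.1% and 11.996% in the control libraries. The 10 macrophage markers summed in neutrophils to 1082 and 1030 CPM in the liproxstatin libraries, against 1085 and 1293 CPM in the control libraries, with overlapping groups. With neutrophils that also carried macrophage or T cell genes left out, the log2 fold change was 1.30 (adjusted p = 0.017, edgeR). It missed the threshold under 3 of 15 alternatives, among them without liproxstatin replicate 2, at 1.34 (adjusted p = 0.079, edgeR), and with the same number of cells drawn from each library, at 2.22 (adjusted p = 0.688, edgeR).

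**Figure D4:**
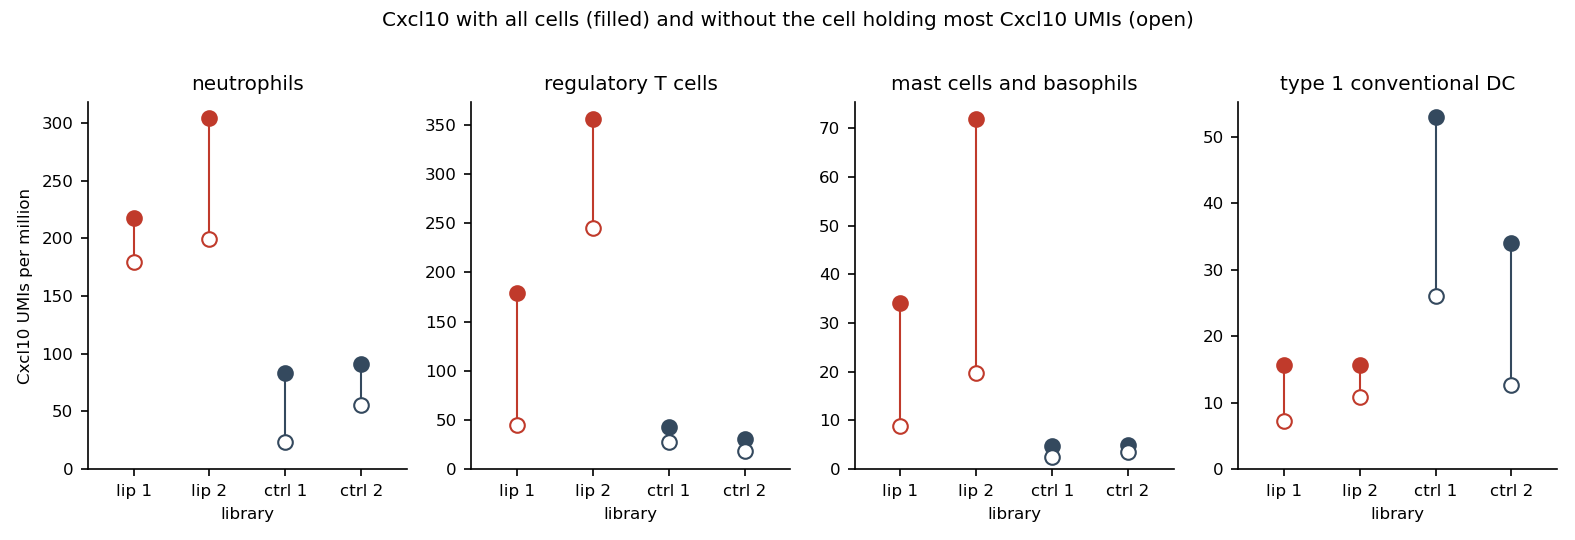
Cxcl10 level (vertical axis, CPM from 0) in the classes where it passed the test, per library, with all cells (filled) and without the cell holding most Cxcl10 UMIs (open); lip, liproxstatin; ctrl, control. In neutrophils the open points still lie apart, at 180 and 200 against 23.2 and 55.3, whereas in the other classes the groups come close in at least 1 library. The neutrophil left out held a larger share of the UMIs in the control libraries than in the liproxstatin libraries.

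In regulatory T cells Cxcl10 was 179 and 356 CPM in the liproxstatin libraries, from 173 and 328 UMIs, against 42.4 and 30.5 CPM in the control libraries, from 17 and 20 UMIs. The log2 fold change was 2.89 ± 0.39 (SE; adjusted p = 0.025, edgeR), in a class where 0.158% of genes passed. Few cells carried it: 17 and 25 in the liproxstatin libraries, against 9 and 7 in the control libraries. In liproxstatin replicate 1 a single cell held 75.1% of the UMIs, and without the top cells the level was 44.6 and 245 CPM in the liproxstatin libraries, against 27.97 and 18.5 CPM in the control libraries; the groups did not overlap, and the log2 fold change of 2.67 missed the threshold (adjusted p = 0.852, edgeR). Without control replicate 1 it was 3.11 (adjusted p = 0.314, edgeR) and without control replicate 2 it was 2.64 (adjusted p = 0.499, edgeR), and with equal cell numbers it was 1.20 (adjusted p = 0.814, edgeR). Free RNA from macrophages would give at most 16.5% of the level in any library, and the 10 macrophage markers summed to 590 and 422 CPM in the liproxstatin libraries, against 589 and 522 CPM in the control libraries.

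In mast cells and basophils, granule-bearing cells of allergic reactions, Cxcl10 rested on 12 and 41 UMIs in the liproxstatin libraries, or 34.0 and 71.9 CPM, against 2 and 3 UMIs in the control libraries, or 4.68 and 4.98 CPM. The log2 fold change was 3.55 ± 0.56 (SE; adjusted p = 0.0061, edgeR), in a class where 0.56% of genes passed. The UMIs came from 4 and 5 cells in the liproxstatin libraries, against 2 and 3 cells in the control libraries. Free RNA would give 14.2 and 16.9 CPM in the liproxstatin libraries, or 41.7% and 23.4% of the level, and more than the whole level in both control libraries, so the control levels were read as background and the fold change is over a background level. Without the top cells the level was 8.85 and 19.8 CPM in the liproxstatin libraries, against 2.43 and 3.42 CPM in the control libraries, near what free RNA would give, and the gene no longer passed the filter on low counts. The call was also lost without liproxstatin replicate 2, at 2.90 (adjusted p = 0.646, edgeR), without control replicate 2, at 3.63 (adjusted p = 0.200, edgeR), and with doublets kept, at 0.76 (adjusted p = 0.948, edgeR).

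In type 1 conventional dendritic cells Cxcl10 was lower, on 44 and 33 UMIs in the liproxstatin libraries, against 97 and 56 UMIs in the control libraries, and the groups did not overlap in CPM. Free RNA from macrophages would give 41.4% and 17.6% of the level in the liproxstatin libraries, against 32.6% and 12.1% in the control libraries. The log2 fold change was -1.44 ± 0.25 (SE; adjusted p = 0.047, edgeR), in a class where 0.164% of genes passed. It missed the threshold under 9 of 15 alternatives, always below 0, among them DESeq2 in place of edgeR (adjusted p = 0.358, DESeq2) and the top cells left out, at -1.10 (adjusted p = 0.766, edgeR). It was -1.45 without liproxstatin replicate 1 (adjusted p = 0.508, edgeR) and -1.43 without liproxstatin replicate 2 (adjusted p = 0.161, edgeR). The 10 macrophage markers summed in this class to 732 and 275 CPM in the liproxstatin libraries, against 1837 and 499 CPM in the control libraries, and their part in the result was not tested. With cells that carried macrophage or T cell genes left out, the log2 fold change was -1.36 (adjusted p = 0.055, edgeR).

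The response of Cxcl10 differed between classes when the difference itself was tested. The log2 fold change in neutrophils exceeded that in mononuclear phagocytes by 1.45 ± 0.33 (SE; adjusted p = 0.024, edgeR interaction term, libraries as blocks), where 0.0587% of genes passed. Against type 1 conventional dendritic cells, a contrast added after seeing that the calls in these classes were opposite, which it restates, it exceeded by 3.10 ± 0.48 (SE; adjusted p = 6.6e-07, edgeR), where 0.108% of genes passed. Both differences missed the threshold when either liproxstatin library was left out, at values between 1.38 and 1.55 for phagocytes and between 3.01 and 3.26 for dendritic cells.

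In the classes that held most ligand UMIs no difference passed the test. In mononuclear phagocytes Cxcl9 was 879 and 843 CPM in the liproxstatin libraries, against 772 and 537 CPM in the control libraries. Both liproxstatin libraries lay above both control libraries, and the log2 fold change was 0.44 ± 0.20 (SE; adjusted p = 0.355, edgeR), in a class where 2.28% of genes passed. Without control replicate 1 it was 0.76 and without control replicate 2 it was the lowest of the 4, at 0.17. These fits left 1 control library and so did not measure the spread between control libraries. Cxcl10 in mononuclear phagocytes was 425 and 455 CPM in the liproxstatin libraries, against 464 and 340 CPM in the control libraries, with overlapping groups and a log2 fold change of 0.18 ± 0.17 (SE; adjusted p = 0.673, edgeR). It was 0.45 without control replicate 1 and -0.059 without control replicate 2.

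In dendritic cells pooled, Cxcl9 was 523 and 467 CPM in the liproxstatin libraries, against 446 and 297 CPM in the control libraries. The log2 fold change was 0.45 ± 0.22 (SE; adjusted p = 0.720, edgeR), in a class where 0.183% of genes passed. Without control replicate 1 it was 0.80, and without control replicate 2 it was 0.19. In the type 1 conventional class alone the log2 fold change of Cxcl9 was 0.51 ± 0.12 (SE; adjusted p = 0.230, edgeR). It was 0.48 without control replicate 1 and 0.56 without control replicate 2, with 1 control library left in each fit.

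The receptor gene passed in none of the 8 classes in which it was tested, and its log2 fold change was above 0 in 1 of them. In CD8 T cells Cxcr3 had a log2 fold change of -0.41 ± 0.16 (SE; adjusted p = 0.314, edgeR), in a class where 1.01% of genes passed, and stayed below 0 under all 15 alternatives. In NK cells it was -0.27 ± 0.13 (SE; adjusted p = 0.704, edgeR), in a class where 0.0748% of genes passed. In macrophages it was -0.65 ± 0.21 (SE; adjusted p = 0.154, edgeR), in a class where 2.07% of genes passed. Without control replicate 2, which left 1 control library, it was -0.93. In regulatory T cells it was 0.05 ± 0.23 (SE; adjusted p = 0.993, edgeR). A p that misses the threshold leaves differences of the size of these errors possible.

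Within CD8 T cells, the Cxcr3 level was highest in a small cluster. The CD8 T cells of cluster 12, led by Tcf7, S1pr1, Lef1, Gm8369 and Kbtbd11, had 136.5 and 127.0 CPM in the liproxstatin libraries, against 178.0 and 151.0 CPM in the control libraries. Those of cluster 2, led by Cd8a, Nrn1, Slc17a6, Pdcd1 and Cd8b1, had 9.14 and 9.41 CPM in the liproxstatin libraries, against 6.92 and 8.52 CPM in the control libraries. Tcf7, S1pr1 and Lef1 are known from naive and memory T cells, and Pdcd1 is the gene of the inhibitory receptor PD-1.

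Cluster 12 made up 7.62% and 6.71% of CD8 T cells in the liproxstatin libraries, against 12.8% and 10.7% in the control libraries. Those cells carried 51.7% and 42.1% of the Cxcr3 UMIs of CD8 T cells in the liproxstatin libraries, against 65.2% and 52.9% in the control libraries. The far more numerous cells of cluster 2 carried 46.0% and 52.0% of them in the liproxstatin libraries, against 23.9% and 33.3% in the control libraries. For cluster 12 both liproxstatin libraries were below both control libraries in the share of cells and in the share of UMIs, for which no test was run. In cluster 2 the liproxstatin libraries were above the control libraries in Cxcr3 level, and its share of CD8 T cells was 79.9% and 78.7% against 70.6% and 73.1%. In clusters 12 and 15 they were below the control libraries in Cxcr3 level. CD8 T cells of cluster 15, led by Hist1h1b, Hist1h2ap, Nusap1, Cenpf and Top2a, had 1.41 and 2.75 CPM in the liproxstatin libraries, against 5.79 and 6.56 CPM in the control libraries. Regulatory T cells of cluster 14 had 146 and 176 CPM in the liproxstatin libraries, against 178 and 145 CPM in the control libraries, with overlapping groups.

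**Figure D5:**
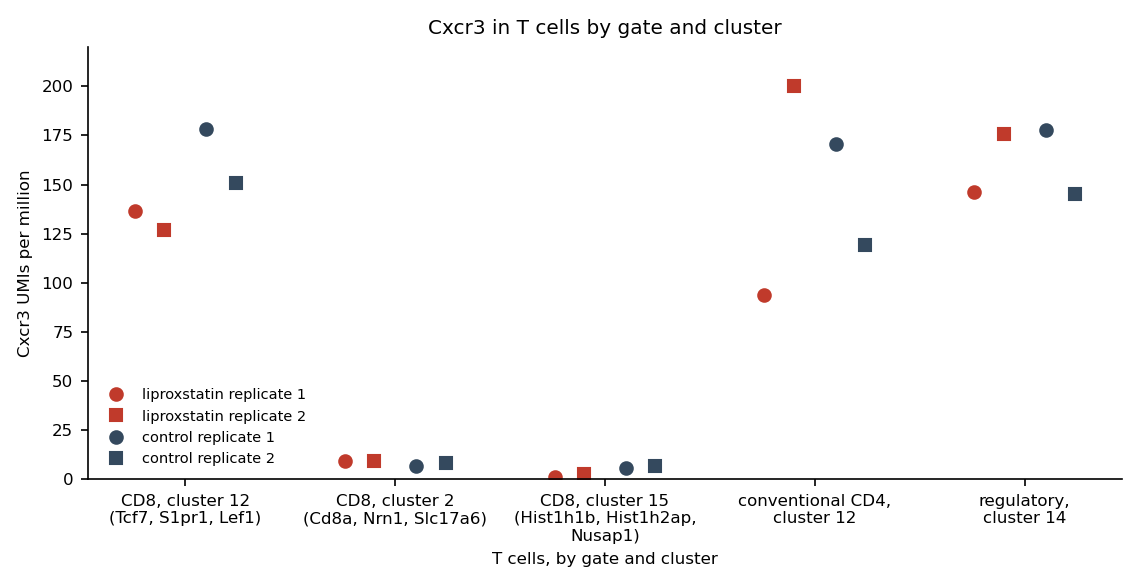
Cxcr3 level (vertical axis, CPM from 0) in T cells parted by their surface genes and by cluster (horizontal axis), with 1 point per library, liproxstatin left of control in each column. CD8 T cells of cluster 12 lay between 127.0 and 178.0, those of cluster 2 between 6.92 and 9.41.

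The pathway around the receptor was read from 5 lists with 53 genes in all. In neutrophils, 0 of 8 tested genes of the interferon gamma arm, 0 of 6 of the type I interferon arm and 0 of 8 of the NF-kappaB and TNF arm passed in either direction by edgeR, beside 0.223% of all genes tested, so a count of 0 in lists this short says little. The median log2 fold changes of these lists were 0.14, 0.17 and 0.35, beside -0.02 over all genes tested. Ifngr1, a chain of the interferon gamma receptor, had 98.6 and 136 CPM in neutrophils in the liproxstatin libraries, against 114 and 127 CPM in the control libraries. Ifng itself, the gene of interferon gamma, was highest in CD8 T cells, with 348 and 301 CPM in the liproxstatin libraries, against 342 and 330 CPM in the control libraries, and did not pass there. No list gene passed in NK cells, monocytes, regulatory T cells or plasmacytoid dendritic cells. Over all genes, 0.0748% passed in NK cells, 0.108% in monocytes, 0.158% in regulatory T cells and 0.254% in plasmacytoid dendritic cells. In conventional CD4 T cells no gene of any kind passed, so the lists say nothing there.

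In macrophages 1 of 10 genes of the interferon gamma arm passed, 1 of 8 of the type I arm, 0 of 8 of the NF-kappaB and TNF arm, 1 of 11 tested modifiers of the receptor and 1 of 13 tested genes of other lymphocyte chemokine pairs, all higher with liproxstatin, beside 2.07% of all genes tested (296 of 14283). The modifier was Rgs1, a brake on G protein signalling, with 676 and 728 CPM in the liproxstatin libraries, against 428 and 489 CPM in the control libraries (log2 fold change 0.66 ± 0.10, SE; adjusted p = 0.012, edgeR). Ciita, the activator of MHC class II genes, had 21.0 and 25.3 CPM in the liproxstatin libraries, against 16.9 and 15.1 CPM in the control libraries (0.58 ± 0.12; adjusted p = 0.046, edgeR). Ccl5, a chemokine that attracts T cells, had 36.0 and 40.004 CPM in the liproxstatin libraries, against 25.1 and 21.0 CPM in the control libraries (0.76 ± 0.11; adjusted p = 0.013, edgeR). Rgs1, Ciita and Ccl5 missed the threshold when either liproxstatin library was left out, at 0.57 to 0.72, 0.40 to 0.72 and 0.65 to 0.85 on the log2 scale, and Ccl5 also under the marker gate, at 0.24 (adjusted p = 0.872, edgeR). In all, Ciita and Ccl5 each missed it under 5 of 15 alternatives, and Rgs1 under 2 of 15.

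Ifnb1, the gene of interferon beta, had 103 and 67 UMIs in macrophages of the liproxstatin libraries, against 2 and 2 UMIs in those of the control libraries (5.09 ± 0.49; adjusted p = 0.00077, edgeR). The UMIs came from 8 and 12 macrophages in the liproxstatin libraries, against 1 and 2 in the control libraries, and a single macrophage of liproxstatin replicate 1 held 79 of them. Without that library the log2 fold change was 4.79 (adjusted p = 0.1004, edgeR). The median log2 fold change of the other chemokine pairs was 0.50 in macrophages, beside -0.0017 over all genes tested.

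Outside macrophages, Ccl5 was higher with liproxstatin in CD8 T cells, with 1252 and 1108 CPM in the liproxstatin libraries, against 794 and 738 CPM in the control libraries (0.62 ± 0.11; adjusted p = 0.0025, edgeR); it missed the threshold without liproxstatin replicate 1, at 0.56, and without liproxstatin replicate 2, at 0.68. In type 2 conventional dendritic cells, where 0.138% of genes passed, Rgs1 had 777 and 785 CPM in the liproxstatin libraries, against 387 and 305 CPM in the control libraries (1.21 ± 0.14; adjusted p = 0.0032, edgeR). Ccl22, a chemokine for CCR4 on regulatory T cells, is also among the migratory dendritic cell markers used here. In the type 2 class it had 119 and 64.1 CPM in the liproxstatin libraries, against 18.6 and 18.5 CPM in the control libraries (2.33 ± 0.31, adjusted p = 0.028, edgeR). Rgs1 missed the threshold there under 2 of 14 alternatives and Ccl22 under 4 of 14, among which each missed it under the marker gate, at 1.41 (adjusted p = 0.127, edgeR) and 2.47 (adjusted p = 0.484, edgeR).

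In mast cells and basophils Nfkb1, a subunit of NF-kappaB, had 159 and 128 CPM in the liproxstatin libraries, against 58.4 and 56.4 CPM in the control libraries (1.42 ± 0.27; adjusted p = 0.021, edgeR). Cxcr4, the CXCL12 receptor, rested there on 30 and 22 UMIs in the liproxstatin libraries, against 6 and 3 UMIs in the control libraries (2.81 ± 0.57; adjusted p = 0.036, edgeR). Nfkb1 missed the threshold under 4 of 15 alternatives, among them without either control library, at 1.45 and 1.42. Cxcr4 missed it under 6 of 15, among them without control replicate 2, at 2.19. Pf4, a platelet chemokine that is also among the macrophage markers used here, was lower in type 1 conventional dendritic cells, with 16.7 and 16.1 CPM in the liproxstatin libraries, against 38.8 and 54.1 CPM in the control libraries (-1.45 ± 0.23; adjusted p = 0.035, edgeR); 1 cell held 32 of 71 UMIs in control replicate 1 and 1 cell 30 of 89 UMIs in control replicate 2. Pf4 missed the threshold there under 8 of 15 alternatives, among them with either liproxstatin library left out, at -1.49 and -1.42. Its log2 fold change was -0.17 under the marker gate (adjusted p = 0.998, edgeR).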

How the data were processed

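Single-cell RNA was measured in 4 libraries of CD45+ cells. The deposited values are raw counts of UMIs for each gene in each barcode, with a matrix for every library; its header names Cell Ranger 6.1.1, per the file headers. Cell Ranger 4 and mm10 stand in the submitters' processing notes. Gene positions came from GENCODE M21 (GRCm38).

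Cells with at least 200 genes and under 15% mitochondrial UMIs were kept. The cells with the highest Scrublet scores, 0.8% per 1000 barcodes (3.30% to 7.44% of a library), were left out as doublets, since Scrublet's own threshold called only 1 to 208 cells a library. Leiden clustering (scanpy 1.11.5, python-igraph 0.11.9, resolution 1, 40 principal components, 20 neighbours, 2651 genes without the members) gave 30 clusters, named from marker lists by thresholds set after the clusters were seen. T cells were parted per cell by Cd8a or Cd8b1, Cd4, Foxp3 and Trdc. Classes were tested where no library had under 20 of their cells, 14 in all. Gamma-delta T cells, 19 of them in control replicate 2, were not.

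UMIs were summed per library and class and fitted with edgeR 4.0.16 (R 4.3.3; filterByExpr, TMM, robust quasi-likelihood, treatment as the only term, 2 libraries against 2). On simulated data with a log2 fold change of 2 the fit found 94.4% of 180 changed genes in neutrophils. Smaller changes and single cells rich in a gene were not simulated, so this share does not cover them. The level that free RNA would give in a class is the ratio of C1qa, C1qb and C1qc there to macrophages (for Cxcr3, of Cd3d, Cd3e, Cd3g and Trac to T cells) times the member's level in the source. Other sources, such as monocytes for Cxcl10 or NK cells for Cxcr3, were not counted, so free RNA may exceed this level. DESeq2 1.42.0, other scalings, filters, clusterings, a marker gate per cell, equal cell numbers and left-out libraries were tried as alternatives. A fit without 1 library leaves 1 library in its group. Its p-value then takes no account of the spread between libraries of that group. The following alternatives were chosen after seeing the data: mixed cells left out, the cell with most Cxcl10 left out, the contrast with type 1 conventional dendritic cells and a crossed pairing.

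The members and lists were chosen with earlier results of these data known. Named genes are the members, list genes that passed in a class described, otherwise up to 4 examples a list, the 5 genes most like each member, markers, and the top 5 genes of a cluster. The replicate numbers of the labels do not say that libraries share an animal or a day. Intervals cover counting error only.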

Additional observations from a re-analysis of the deposited data

Results flagged for a closer look

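The log2 fold change of Cxcl10 with liproxstatin was larger in neutrophils than in mononuclear phagocytes by 1.45 ± 0.33 (SE; adjusted p = 0.024, edgeR interaction term), and it is given here because the response differed between classes of the same libraries. In neutrophils each liproxstatin library was above each control library, whereas in mononuclear phagocytes the groups overlapped. The same test against type 1 conventional dendritic cells, added after the calls in these classes were seen to be opposite and so no independent evidence, gave 3.10 ± 0.48 (SE; adjusted p = 6.6e-07, edgeR). Each rests on 2 libraries a group, and both missed the threshold when liproxstatin replicate 1 was left out, at 1.55 and 3.26, or replicate 2, at 1.38 and 3.01.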

How the results depend on the processing

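Cxcl10 in neutrophils stayed above 0 under all 15 alternatives and lost its call with equal cells per library (2.22) and with the labels' replicate numbers as a replicate block, at 1.57 (adjusted p = 0.376, edgeR). The block also ended the calls of Ciita and Ccl5 in macrophages and of Rgs1 and Ccl22 in type 2 conventional dendritic cells, and no other call of a member or list gene named; same-numbered libraries correlated between -0.256 and 0.181 over the classes, and whether a number marks a shared batch was not tested. The block moved the genes called by edgeR from 13 to 0 in neutrophils, 8 to 100 in NK cells, 0 to 136 in conventional CD4 T cells, 117 to 310 in CD8 T cells, 13 to 199 in monocytes and 296 to 207 in macrophages. In fibroblasts, the class with the lowest correlation, a crossed pairing called 0 genes, as did the block and the fit without it, which says nothing on pairing (173 genes crossed and 128 with the block at an unadjusted p under 0.05). Leaving out 1 library gave 1.34 to 1.74 for Cxcl10 in neutrophils, 0.17 to 0.76 for Cxcl9 and -0.059 to 0.45 for Cxcl10 in mononuclear phagocytes, 0.19 to 0.80 for Cxcl9 in dendritic cells, and 1.08 to 2.02 for the neutrophil response over that of phagocytes. Cxcl9 passed with no low-count filter in mononuclear phagocytes (0.44) and dendritic cells (0.47). The 4 calls of a member in a class became 2 under the marker gate, 2 without mixed cells, 1 with doublets kept, 0 with equal cells, 7 with no low-count filter, 1 without the top cells, and 3 to 8 with 1 library left out. The share of UMIs in mononuclear phagocytes was 94.3% under the gate and 92.9% with doublets kept for Cxcl9, and 87.4% and 91.2% for Cxcl10; that of Cxcr3 in T and NK cells was 59.2% and 60.9%. Cxcr3 in CD8 T cells and NK cells missed the threshold under every one of 15 alternatives.

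Depth limits the smallest classes: mast cells and basophils rest on 2 and 3 Cxcl10 UMIs in the control libraries, and 2 libraries a group leave each test open to 1 library. Rare cells with many UMIs carry much of the Cxcl10 of neutrophils and regulatory T cells. Class names rest on markers, and control replicate 1 holds the fewest cells, among them 98 neutrophils. Where a call changed, the cause was not tested.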

Other observations

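Gamma-delta T cells, which recognise stress ligands and were too few to test, had 204 and 191 CPM of Cxcl10 in the liproxstatin libraries, from 99 and 68 UMIs, against 47.5 and 21.2 CPM in the control libraries, from 9 and 4 UMIs. A Cxcl10 UMI was seen in 14.5% and 10.2% of these cells in the liproxstatin libraries, against 25% in control replicate 1. Control replicate 2 lay between the liproxstatin libraries in this share, so the groups overlapped. The higher liproxstatin levels thus rested on few cells. The Cxcr3 level of gamma-delta T cells was 156 and 118 CPM in the liproxstatin libraries, against 111 and 127 CPM in the control libraries. Conventional CD4 T cells had 137 and 37.5 CPM of Cxcl10 in the liproxstatin libraries, against 456 and 146 CPM in the control libraries, and a single cell held 94.2% of the 120 UMIs of control replicate 1. Monocytes held 38 and 33 Ifnb1 UMIs in the liproxstatin libraries, against 5 and 1 in the control libraries. Dpp4, an enzyme that trims and inactivates CXCR3 ligands, was seen in type 1 conventional dendritic cells at 85.4 and 75.4 CPM in the liproxstatin libraries, against 71.5 and 88.7 CPM in the control libraries, with overlapping groups.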
